A study of Mus musculus with 22 samples.

Results

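Stage I eosinophil precursors from mice given an antibody against IL-5 were set against the next step of control maturation, stage II cells from mice given the isotype control antibody. The comparison rests on 5 of the 22 libraries of the series, 3 of anti-IL5 stage I and 2 of isotype stage II, taken by treatment and stage from the sample titles. It asks which genes of the isotype stage II state the anti-IL5 precursors had already reached, and which they had not. All mice were wild-type C57BL6 and all received IL-33, 400 ng intraperitoneally on each of 7 days, followed by 400 µg of the anti-IL5 or isotype antibody on 3 days in a row, the first with the last IL-33 dose. Every group thus had IL-33, and the extent of eosinophilia in each was not measured here. Marrow was depleted of cells bearing Ly6G, CD90.2, NK1.1 or CD45R, and stages I to IV were sorted at a purity of 95% or more with antibodies to CD117, CD55, CD29, CD200R3, PIR-A/B, Siglec-F and F4/80. The labels used here do not say which of these markers set the gate of each stage, and give no age or sex of the mice. They also do not say whether the libraries of a group came from separate animals, so p-values measure the spread between libraries, which may be partly technical.

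The groups differ in stage and in antibody at once, and within this comparison the effects cannot be told apart. The 3 isotype stage I and 2 anti-IL5 stage II libraries are therefore given beside the main genes. Isotype stage III (3 libraries) serves as a later reference that shares no library with the comparison. IL-5 is the main cytokine of the eosinophil lineage. It binds a receptor of Il5ra and the common beta chain, activates JAK2 and STAT5 and supports proliferation, survival and terminal maturation in the marrow. STAT5 induces feedback inhibitors of the SOCS family and the PIM kinases, and its targets include survival genes of the Bcl2 family. As eosinophil precursors mature they first fill their granules with Epx, Prg2 and the Ear ribonucleases, lose progenitor genes such as Cd34, and later gain chemokine receptors, lipid mediator enzymes and inhibitory receptors.

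The canonical palindrome bound by STAT5 dimers is TTCNNNGAA, which reads the same on both strands. It occurs in 2726 of 32851 RefSeq start-site windows of 300 bases (8.3%; GRCm38.p6, 250 bases before each annotated start and 50 after). Of the 23 genes on the list of IL-5 and STAT5 targets, 17 had such a window and 3 of them, Cish, Socs3 and Bcl6, held a match in any window. Some genes have several windows, so this count by gene is not on the scale of the share by window. The windows of Cish, which was lower in anti-IL5 stage I, and of Bcl6, a gene that STAT5 represses in lymphocytes, are shown because their differences from isotype stage II, given below, had opposite signs, although that of Bcl6 missed the threshold. They run 5′ to 3′ along the gene and capitals mark the matches. Cish is shown for chr9:107296409-107296678 (plus strand) and has 2 matches, at and just after its annotated start. Bcl6 is shown for chr16:23988853-23989102 (minus strand), ending at its first annotated start, and has 1 match there. The window of another annotated Bcl6 start, which is not shown, has 3 matches.
Cish: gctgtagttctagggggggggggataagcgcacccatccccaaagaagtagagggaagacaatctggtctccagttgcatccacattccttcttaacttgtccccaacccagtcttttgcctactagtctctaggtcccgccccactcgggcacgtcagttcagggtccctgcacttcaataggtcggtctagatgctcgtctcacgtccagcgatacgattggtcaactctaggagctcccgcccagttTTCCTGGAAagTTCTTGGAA
Bcl6: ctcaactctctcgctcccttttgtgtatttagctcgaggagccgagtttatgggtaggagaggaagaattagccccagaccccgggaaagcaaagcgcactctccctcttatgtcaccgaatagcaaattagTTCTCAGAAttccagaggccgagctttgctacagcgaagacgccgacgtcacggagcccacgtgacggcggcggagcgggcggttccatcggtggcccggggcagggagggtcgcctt
A match describes these letters and is not evidence of binding. Windows without a match, such as those of Pim1 and Socs1, say only that the palindrome is not in that window.

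The 5 libraries held 7161264 to 8813193 gene counts, and 3 counts correspond to 0.286 to 0.411 CPM (the usual depth-normalised count, on library sizes scaled by TMM). A count of 0 therefore allows a level up to that floor, which covers counting error only. All 5 carried the eosinophil identity of the label. Epx, eosinophil peroxidase, had 19500, 16000 and 19400 CPM in anti-IL5 stage I libraries, against 24400 and 18300 CPM in isotype stage II. Prg2, the major basic protein, had 21200, 16900 and 17500 CPM in anti-IL5 stage I, against 24800 and 17700 CPM in isotype stage II. The isotype stage II libraries were the least alike pair within stages I and II of both antibodies (chi-square of 51.6 per gene, against 13.8 to 42 for the other pairs), and several results below rest on one of them.

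Of 12387 genes tested with edgeR's quasi-likelihood test over all 22 libraries, 288 (2.33%) differed between anti-IL5 stage I and isotype stage II at a Benjamini-Hochberg adjusted p under 0.05. Anti-IL5 stage I was higher in 89 (0.718%) and lower in 199 (1.61%). At unadjusted p under 0.05, 1925 of the 12387 genes differed in either direction, which is the background for the unadjusted list counts below. For the isotype step itself, stage II against stage I, 1319 genes (10.6%) differed, 916 (7.39%) higher and 403 (3.25%) lower. The split between higher and lower genes depended on the fit. It was 89 and 199 here, 133 and 150 with limma-voom and 134 and 92 when only anti-IL5 stage I and isotype stages I and II were fitted, and DESeq2 had 231 of its 529 called genes higher. Single libraries moved the total as well. It was 74 without isotype stage II replicate 1, 747 without isotype stage II replicate 2, 146 without anti-IL5 replicate 2 and 99 without anti-IL5 replicate 3.

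Stage II genes were defined as those that differed between isotype stage II and isotype stage I with an absolute log2 difference of at least 1, which gave 436 rising genes (3.52% of those tested) and 203 falling genes (1.64%). A stage II gene was counted as not reached when anti-IL5 stage I differed from isotype stage II on the stage I side, and as reached when it did not differ and the 95% interval of the difference lay within -1 to 1 on the log2 scale, a 2-fold margin. Of the rising genes, 105 (24.1%) were not reached, 102 (23.4%) were reached and 229 (52.5%) could not be decided. Of the falling genes, 51 (25.1%) were not reached, 29 (14.3%) were reached and 123 (60.6%) could not be decided. No stage II gene went beyond its isotype stage II level. Over all genes tested, 6447 (52%) lay within the same margin. Rising genes had a median difference of -0.72 between anti-IL5 stage I and isotype stage II, beside a median step of 1.53 between isotype stages II and I. Falling genes had a median difference of 1.13, beside a step of -1.55. The step and the difference share the isotype stage II libraries, so a library that is high by chance makes both larger, and these counts are a description. Without isotype stage II replicate 1 the genes not reached numbered 33 in all, and without isotype stage II replicate 2 they numbered 420, against 156 with both.

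The same reading was made with genes of the longer step from isotype stage I to stage III, a contrast that compares none of the 5 libraries. Both contrasts come from 1 fit, whose filter, scaling and spread estimates used all 22 libraries, so this is no independent check. The isotype stage I libraries took part in choosing these genes and also serve as a reference for them below. They are placed by the isotype stage II level, so reached does not mean the stage III level. A gene that had hardly moved by isotype stage II can count as reached. Csf2rb did so with means of 144 CPM in anti-IL5 stage I and 166, 205 and 441 CPM in isotype stages I to III. Of 2154 rising stage III genes, 159 (7.38%) were lower in anti-IL5 stage I than in isotype stage II, where 1.61% of all genes were lower. Of 2161 falling stage III genes, 44 (2.04%) were higher, where 0.718% of all genes were higher. Within the 2-fold margin lay 1039 rising genes (48.2%) and 908 falling genes (42%), beside 52% of all genes. In 10 rising and 1 falling stage III genes anti-IL5 stage I lay past isotype stage II in the direction of stage III. Crhbp is the falling one. The mean log2 CPM of the rising set was 4.27, 4.17 and 4.12 in the anti-IL5 stage I libraries, against 4.52 and 4.47 in isotype stage II. It was 3.92, 3.69 and 3.81 in isotype stage I. Every anti-IL5 stage I library thus lay between the isotype stage I and stage II libraries. For the falling set it was 4.26, 4.36 and 4.49 in anti-IL5 stage I, against 3.89 and 4.05 in isotype stage II and 4.66, 4.71 and 4.70 in isotype stage I, again between both.

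**Figure D1:**
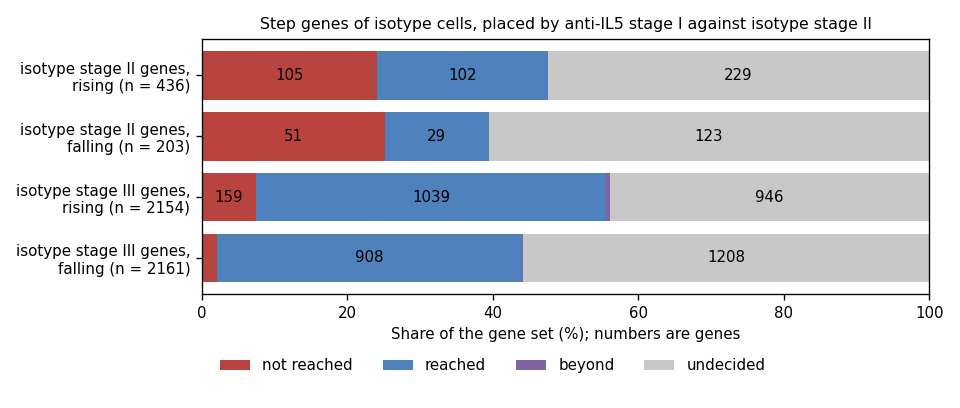
Horizontal bars give, for 4 sets of genes that rise or fall over isotype maturation, the share (%) not reached, reached, beyond or undecided when anti-IL5 stage I is set against isotype stage II, with gene numbers in the bars. Of the stage II genes, 105 rising and 51 falling were not reached and 102 rising and 29 falling were reached. Stage III genes were also placed by the isotype stage II level, which was not reached in 159 and 44 cases.

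**Figure D2:**
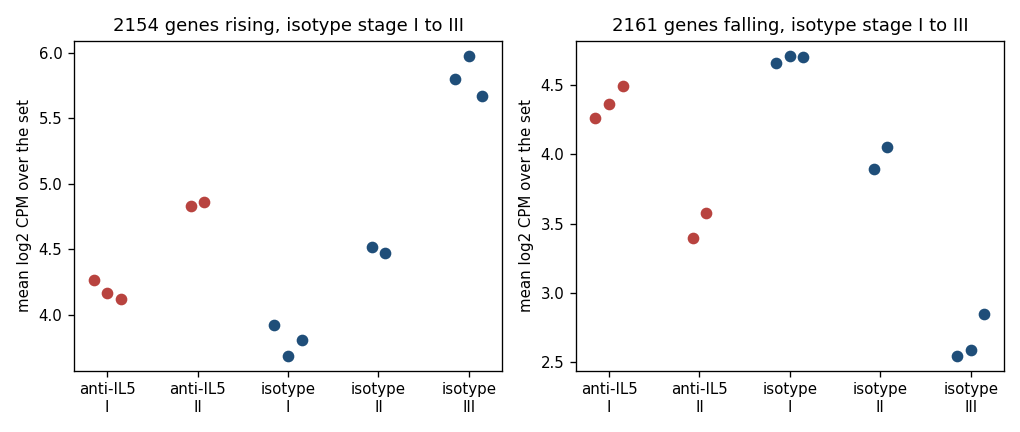
Each point is a library, and the y axis is the mean log2 CPM over the 2154 genes that rise (left) or the 2161 that fall (right) from isotype stage I to III, for anti-IL5 stages I and II (red) and isotype stages I to III (blue). The anti-IL5 stage I libraries, 4.12 to 4.27 in the rising set, lie between isotype stage I (3.69 to 3.92) and isotype stage II (4.47 and 4.52).

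Genes at the isotype stage II level included Id2, Tgfbi and Bank1. Id2, which blocks DNA binding by helix-loop-helix factors, had 289, 264 and 190 CPM in anti-IL5 stage I, against 314.9 and 245 CPM in isotype stage II. Isotype stage I had 38.8, 25.6 and 38.2 CPM. The anti-IL5 and isotype stage II libraries overlapped, and their log2 difference was -0.18 ± 0.185 (SE; 95% interval -0.56 to 0.21; edgeR adjusted p = 0.712). Anti-IL5 stage II stood higher than both, at 846 and 810 CPM. Tgfbi, a secreted matrix protein, had 57.2, 45 and 32.5 CPM in anti-IL5 stage I, against 52.8 and 30.2 CPM in isotype stage II and 5.69, 3.85 and 3.87 CPM in isotype stage I. Its difference was 0.11 ± 0.279 (95% interval -0.47 to 0.69; edgeR adjusted p = 0.907). The groups overlapped here too. Bank1, a signalling scaffold best known in B cells, had 38.6, 41.9 and 26.1 CPM in anti-IL5 stage I, against 44.6 and 48.4 CPM in isotype stage II and 11.2, 7.39 and 9.81 CPM in isotype stage I. Its anti-IL5 libraries all lay below isotype stage II, but the difference of -0.39 ± 0.209 did not pass (edgeR adjusted p = 0.386) and its interval, -0.82 to 0.04, stayed within the margin. Id2 and Bank1 were reached in all 15 alternative fits run, and Tgfbi in 14, the exception being the fit without isotype stage II replicate 1.

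Further reached genes that rise over the isotype step were Ccr1, a chemokine receptor, Ipcef1, Mxd3, a MAX partner that represses MYC targets, Tmem71 and Pilrb2, a paired immunoglobulin-like receptor. Ccr1 had 194, 159 and 104 CPM in anti-IL5 stage I, against 246 and 123 CPM in isotype stage II and 54.9, 23.4 and 58 CPM in isotype stage I. Mxd3 had 65.7, 51 and 34.1 CPM in anti-IL5 stage I, against 61.6 and 48.8 CPM in isotype stage II, with 11, 17.3 and 15 CPM in isotype stage I. Both overlapped with isotype stage II and lay above every isotype stage I library. The placing of Tmem71 was the least stable of these, with 6 of 15 alternative fits giving it as reached, and without isotype stage II replicate 2 it was not reached. Ipcef1 was reached in 14 of 15, Mxd3 in 13, Ccr1 in 11 and Pilrb2 in 9.

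The reached genes with the largest falls over the isotype step were Nsun2, an RNA cytosine methyltransferase, Gnl3 (nucleostemin, a nucleolar GTPase of growing cells), the nucleolar protein Mybbp1a, the transfer RNA exporter Xpot, the polyamine enzyme Odc1, the sulfhydryl oxidase Qsox2, the zinc transporter Slc39a6 and the acetyltransferase subunit Naa25. Nsun2 had 91.1, 119 and 131 CPM in anti-IL5 stage I, against 94.3 and 120 CPM in isotype stage II and 226, 253 and 242 CPM in isotype stage I. Gnl3 had 75.2, 78.6 and 90.9 CPM in anti-IL5 stage I, against 59.8 and 65.4 CPM in isotype stage II and 157, 145 and 123 CPM in isotype stage I. For Nsun2 the libraries of both groups overlapped, while for Gnl3 they did not and the difference of 0.38 ± 0.248 did not pass (edgeR adjusted p = 0.502). Nsun2 was reached in all 15 alternative fits. Mybbp1a was reached in 10 of 15 and not reached without isotype stage II replicate 2.

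The gene lists for ribosomes and secretion held 0 or 1 called genes each, and most of their members lay within the 2-fold margin of isotype stage II, as did 52% of all genes. Of 40 ribosome biogenesis genes, 0 were called between anti-IL5 stage I and isotype stage II by edgeR (1 was lower at unadjusted p under 0.05), where 2.33% of all genes were called. Their median log2 difference was 0.04 and 33 of 40 lay within the 2-fold margin, while over the isotype step their median was -0.70 and 16 of 40 fell. Over that step 3.25% of all genes were lower, and the median of all genes was 0.02. Summed ribosome biogenesis CPM were 3080 to 3210 in anti-IL5 stage I, against 3010 to 3060 in isotype stage II and 4620 to 5190 in isotype stage I. Of 33 genes of the secretory pathway and unfolded protein response, 28 lay within the margin and the median was -0.02, beside a median of -0.59 and 11 genes lower over the isotype step. The 1 that was called, Kdelr3, is described below. Of 82 cytosolic ribosomal protein genes, 0 were called (2 higher and 1 lower at unadjusted p under 0.05), 76 lay within the margin and the median was 0.16, beside -0.50 over the isotype step. Step and difference share the isotype stage II libraries in each of these lists.

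No gene of the cell cycle and oxidative phosphorylation lists was called in the main fit. Of 54 G2/M genes 0 were called, none of them at unadjusted p under 0.05 either, and the median was 0.08, beside a step of 0.53. Summed G2/M CPM were 10700 to 12500 in anti-IL5 stage I, against 10400 to 13200 in isotype stage II and 6680 to 9010 in isotype stage I. Of 42 S phase genes 0 were called (6 lower at unadjusted p under 0.05) with a median of -0.22, and of 75 oxidative phosphorylation genes 0 were called (14 lower and 1 higher at unadjusted p under 0.05) with 73 within the margin. At that unadjusted threshold 1925 of all 12387 genes differed. Summed S phase CPM were 5820 to 6610 in anti-IL5 stage I, against 7520 and 8210 in isotype stage II and 5800 to 7210 in isotype stage I. Summed oxidative phosphorylation CPM were 13200 to 13500 in anti-IL5 stage I, against 14600 and 17300 in isotype stage II and 12200 to 17000 in isotype stage I. Both sums were lower in anti-IL5 stage I than in isotype stage II without overlap, and no test was made of them. The proliferation marker Mki67 had 251, 298.5 and 204 CPM in anti-IL5 stage I, against 188 and 390 CPM in isotype stage II, which overlapped.

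Granule genes were already high at isotype stage I, and 0 of 10 tested members were called (1 lower at unadjusted p under 0.05; median -0.26, step 0.35). Prg3, Ear1 and Ear2 differed by -0.14 ± 0.29, -0.34 ± 0.339 and -0.27 ± 0.373 on the log2 scale, with edgeR adjusted p of 0.888, 0.702 and 0.802. Reads of the Ear genes may be split between near-identical copies. Of 21 transcription factors of the lineage 0 were called (4 higher and 5 lower at unadjusted p under 0.05). Gata1, the factor that specifies eosinophils, had 269, 225 and 239 CPM in anti-IL5 stage I, against 363 and 266 CPM in isotype stage II (log2 difference -0.36 ± 0.176, edgeR adjusted p = 0.32). Cebpe, which drives granule genes, differed by -0.17 ± 0.176 (adjusted p = 0.703) and Xbp1, which sustains the secretory pathway in eosinophils, by 0.09 ± 0.148 (adjusted p = 0.843). Gata2 differed by -0.74 ± 0.249 (adjusted p = 0.132) and Cebpa by 1.83 ± 0.612 (adjusted p = 0.133), so neither is placed.

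The IL-5 receptor chain Il5ra had 233, 307.7 and 295.9 CPM in anti-IL5 stage I, against 197 and 243 CPM in isotype stage II. These overlapped (log2 difference 0.34 ± 0.207, edgeR adjusted p = 0.464). The common beta chain Csf2rb differed by -0.51 ± 0.216 (adjusted p = 0.244), and its mouse-specific relative Csf2rb2 by -1.03 ± 0.374 (adjusted p = 0.159), with 36.8 CPM in isotype stage II replicate 2 and 9.42 to 15.2 CPM in the 4 other libraries of the comparison. The IL-33 receptor Il1rl1 differed by -0.11 ± 0.342 (adjusted p = 0.93) and Siglecf, whose protein was a sort marker, by 0.14 ± 0.154 (adjusted p = 0.74).

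Several genes of later eosinophil function were not reached. Of 28 receptors and effectors, 6 were lower in anti-IL5 stage I and 0 higher (21.4% called, against 2.33% of all genes), with a median of -0.53, beside a median step of 0.98. The 6 were Alox15, Alox5, Cd300lf, Pirb, C3ar1 and Itgb7. Alox15, a lipoxygenase that makes lipid mediators, had 2440, 1590 and 1310 CPM in anti-IL5 stage I, against 5200 and 3320 CPM in isotype stage II and 633, 539 and 530 CPM in isotype stage I. Anti-IL5 precursors stood between the isotype stages without overlap (log2 difference -1.26 ± 0.26, edgeR adjusted p = 0.009). Anti-IL5 stage II had 6310 and 4320 CPM. Alox5, which starts leukotriene synthesis, had 460, 330 and 286 CPM in anti-IL5 stage I, against 800 and 527 CPM in isotype stage II and 360, 296.3 and 318 CPM in isotype stage I (difference -0.89 ± 0.198, edgeR adjusted p = 0.0157). Here anti-IL5 stage I overlapped isotype stage I. The inhibitory receptor Cd300lf had 49.2, 23.7 and 39.8 CPM in anti-IL5 stage I, against 232 and 104 CPM in isotype stage II (difference -2.16 ± 0.373, edgeR adjusted p = 0.00222). Pirb, an inhibitory receptor whose protein was part of the sort, differed by -1.07 ± 0.244 (adjusted p = 0.0181), and the complement receptor C3ar1 by -2.24 ± 0.481 (adjusted p = 0.00965) at levels of 0.584 to 2.13 CPM against 3.97 and 6.79 CPM. Itgb7, an integrin chain named after its value was seen, differed by -1.20 ± 0.284 (adjusted p = 0.0244).

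The count of lower receptors and effectors fell to 1 when anti-IL5 replicate 2 or 3 was left out or when only stages I and II were fitted, and to 2 without isotype stage II replicate 1 or with only the 3 groups. The calls of Alox15, Alox5, Pirb and Itgb7 each ended without anti-IL5 replicate 2, anti-IL5 replicate 3 or isotype stage II replicate 1, with highest edgeR adjusted p of 0.194, 0.332, 0.398 and 0.556. C3ar1 was lost without anti-IL5 replicate 2 or 3 or isotype stage II replicate 2 (highest 0.0834), and Cd300lf without isotype stage II replicate 1 (0.129). Fitting only stages I and II ended the calls of Alox15 (0.0504), and this or the fit of only the 3 groups those of Alox5, Pirb, Itgb7 and C3ar1 (highest 0.102, 0.12, 0.141 and 0.132), the last also with limma-voom. Over the 15 alternative fits Cd300lf was not reached in 14, Alox15 in 11, Pirb and Itgb7 in 10, C3ar1 in 7 and Alox5 in 6. In the others they could not be placed or, for C3ar1 and Alox5, mostly had no isotype step, as with limma-voom for C3ar1 and with RLE size factors or DESeq2 for Alox5. The eotaxin receptor Ccr3, which guides eosinophils into tissue, could not be placed. It had 35.1, 26.7 and 17.9 CPM in anti-IL5 stage I, against 70.6 and 31.2 CPM in isotype stage II and 6.8, 2.5 and 5.38 CPM in isotype stage I. Its libraries overlapped with isotype stage II and stood above isotype stage I, and the difference was -0.94 ± 0.407 (95% interval -1.79 to -0.09, edgeR adjusted p = 0.259).

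Under the rule for named genes, the largest isotype steps not reached were those of Adam19, Serpinb2, Retnlg, S100a6, Lilra6, Cd200r4, Ifitm6 and Gsap. Serpinb2, a protease inhibitor, had 14.7, 8.66 and 7.3 CPM in anti-IL5 stage I, against 216 and 75.6 CPM in isotype stage II and 1.92, 2.71 and 1.23 CPM in isotype stage I. It stood between the isotype stages and nearer to stage I (difference -3.84 ± 0.381, edgeR adjusted p = 1.44e-05), while anti-IL5 stage II had 337 and 163 CPM. S100a6, a calcium-binding protein, had 49.6, 26.6 and 34.1 CPM in anti-IL5 stage I, against 252 and 173 CPM in isotype stage II and 6.51, 7.29 and 12 CPM in isotype stage I (difference -2.53 ± 0.301, edgeR adjusted p = 5.55e-05). Adam19, a membrane metalloprotease, was at 0.283 CPM or less in isotype stage I. It had 7.46, 6.76 and 2.14 CPM in anti-IL5 stage I, against 23.3 and 22.9 CPM in isotype stage II (difference -2.09 ± 0.356, edgeR adjusted p = 0.00153; 0.0546 when only the 3 groups were fitted). Retnlg, a resistin-like secreted protein, had 28.2, 31.5 and 33.6 CPM in anti-IL5 stage I, against 250 and 80.6 CPM in isotype stage II and 4.44, 6.56 and 5.28 CPM in isotype stage I (difference -2.41 ± 0.326, edgeR adjusted p = 0.000228). In each of these the anti-IL5 precursors had left the isotype stage I level without overlap and remained below isotype stage II. The calls of Lilra6, Cd200r4, Ifitm6 and Gsap ended without isotype stage II replicate 1, with edgeR adjusted p of 0.258, 0.14, 0.193 and 0.0897. With limma-voom or fewer groups, Lilra6, Cd200r4 and Gsap also missed it (highest 0.0754, 0.061 and 0.0781).

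Lmna, which encodes the nuclear lamins A and C, behaved otherwise. It had 40.7, 24.3 and 28.7 CPM in anti-IL5 stage I, against 244 and 119 CPM in isotype stage II and 36.2, 40.3 and 55.5 CPM in isotype stage I, so that anti-IL5 stage I overlapped isotype stage I (difference from isotype stage II -2.54 ± 0.273, edgeR adjusted p = 1.79e-05). Anti-IL5 stage II had 168 and 97.8 CPM, overlapping isotype stage II. Padi4, a histone-citrullinating enzyme, was lower as well, with 378, 242 and 193 CPM in anti-IL5 stage I, against 694 and 419 CPM in isotype stage II (difference -1.04 ± 0.248, edgeR adjusted p = 0.0253). Unlike Lmna, it lay above the isotype stage I libraries, which had 112, 91.3 and 90.6 CPM (difference 1.47 ± 0.224, adjusted p = 0.00057). The glucose transporter Slc2a3 was also lower than in isotype stage II (-1.12 ± 0.252, adjusted p = 0.016). Each of these calls, Padi4 and Slc2a3, ended without anti-IL5 replicate 2, anti-IL5 replicate 3 or isotype stage II replicate 1 (highest 0.412 and 0.144), and with fewer groups in the fit (highest 0.124 and 0.062). Of 17 glycolysis genes 3 were lower, where 1.61% of all genes were. They were Slc2a3, the lactate exporter Slc16a3 (-0.83 ± 0.186, adjusted p = 0.0161) and Aldoa (-0.77 ± 0.198, adjusted p = 0.0386). None of the 17 passed without anti-IL5 replicate 2 or 3, or when only stages I and II or only the 3 groups were fitted, and 1 passed without isotype stage II replicate 1.

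Markers of other cells moved beside some of these genes, and their part in the results was not tested. In bulk libraries, fewer cells of a type and less RNA per cell cannot be told apart. Retnlg and Padi4 also belong to a list of 16 mature neutrophil genes, of which these 2 were lower, where 1.61% of all genes were, and 0 higher. The list had a median of 0.08, and at unadjusted p under 0.05 these 2 were also its only lower members. Its summed CPM were 3740 to 8050 in anti-IL5 stage I, against 5700 to 8860 in isotype stage II and 3370 to 4530 in isotype stage I. None of its members was at 0 counts throughout. Of 10 monocyte genes, 1 was lower, the receptor Csf1r (-1.42 ± 0.352, edgeR adjusted p = 0.0334; highest 0.739 without anti-IL5 replicate 2 or 3 or isotype stage II replicate 1, and 0.145 with limma-voom, no filter or fewer groups). The monocyte list had a median of -1.48 and summed to 856 to 978 CPM in anti-IL5 stage I, against 1410 and 1510 CPM in isotype stage II. In isotype stage I it summed to 665 to 1120 CPM, and 0 members were at 0 throughout. The T, NK and innate lymphoid list summed to 4.57 to 6.63 CPM in anti-IL5 stage I, against 6.34 and 6.98 CPM in isotype stage II, with Cd3e, Cd8a, Ncr1 and Cd247 at 0 in all 5 libraries. The erythroid list summed to 48.6 to 95.8 CPM, against 38.9 and 101 CPM, with all 4 haemoglobin genes on the list at 0 in all 5 libraries. Ndufs5, a respiratory chain subunit that every cell uses, was listed at 0 there too, so a 0 in the files need not mean that a gene is silent. Sums of the megakaryocyte list (813 to 1270 against 924 and 993 CPM), the B lineage list (40.5 to 49.7 against 23 and 49.6 CPM) and the dendritic list (91.8 to 110 against 67 and 105 CPM) gave 0 called genes each.

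**Figure D3:**
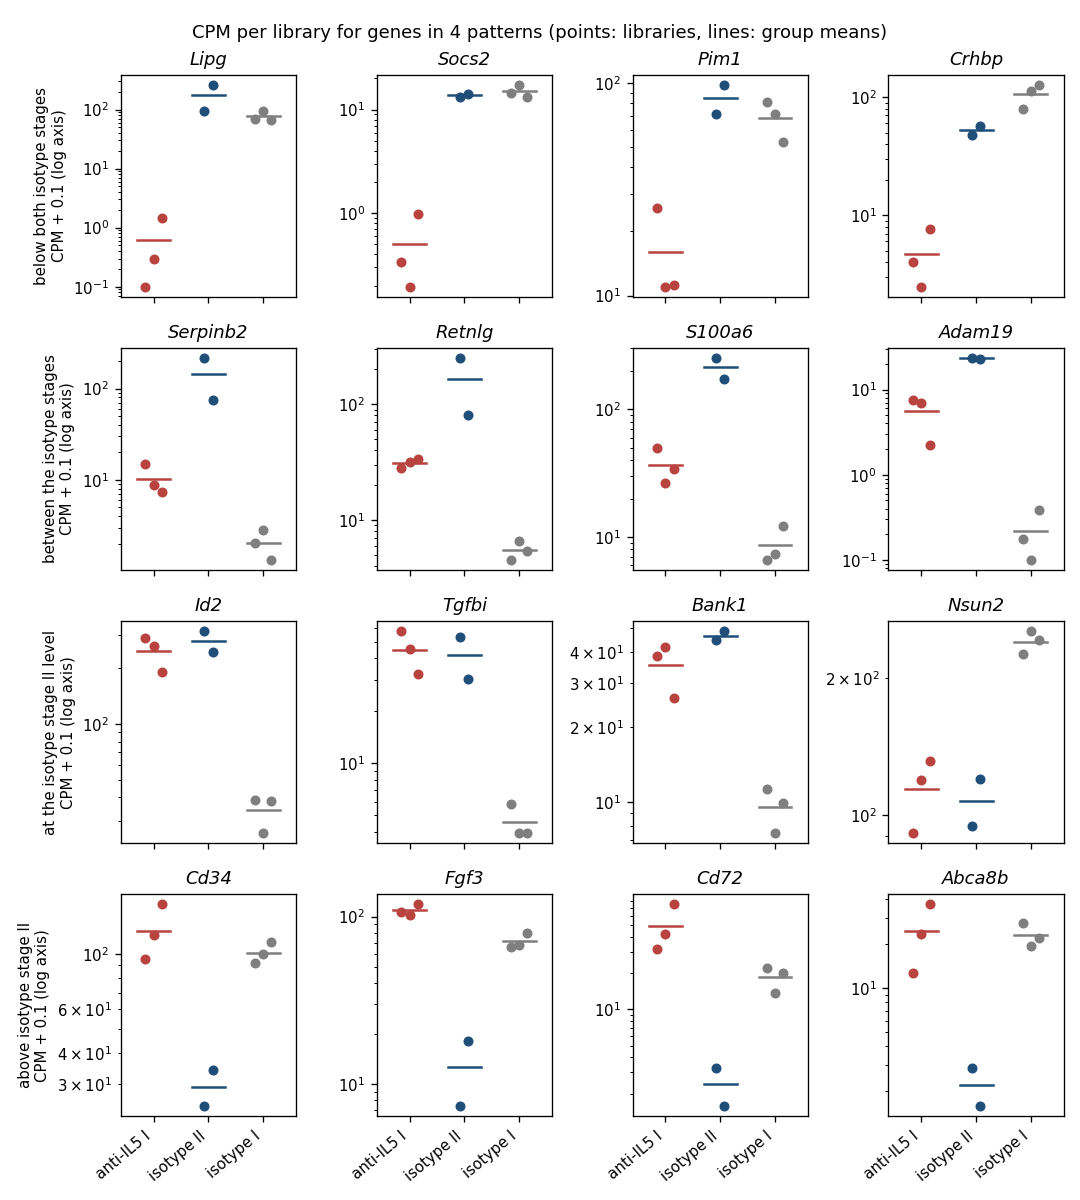
CPM plus 0.1 on a log axis for 16 genes, with a point per library and a line at the group mean, for anti-IL5 stage I (red), isotype stage II (blue) and isotype stage I (grey). From the top row down, anti-IL5 stage I lies below both isotype stages (Lipg, 0 to 1.36 CPM against 94 and 261), between them (Serpinb2), at the isotype stage II level (Id2, 190 to 289 CPM against 314.9 and 245) or above isotype stage II (Fgf3, 102 to 118 CPM against 7.26 and 18).

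Some genes were lower in anti-IL5 stage I than in either isotype stage, and these included targets of STAT5. Others, described below, included F2rl2, F2r, Kdelr3 and Bcl2a1a. They differed from isotype stage I by -2.04 ± 0.412, -2.61 ± 0.712, -3.31 ± 0.664 and -2.04 ± 0.387 (edgeR adjusted p = 0.00481, 0.033, 0.00594 and 0.0032). F2rl2 and Bcl2a1a thus counted as rising genes not reached while lying under the isotype stage I level. Against isotype stage I, 4.42% of all genes differed and 1.82% were lower. Lipg, an endothelial-type lipase, had 0, 0.19 and 1.36 CPM in anti-IL5 stage I, against 94 and 261 CPM in isotype stage II and 70.3, 95.7 and 65.5 CPM in isotype stage I. It was as low in anti-IL5 stage II, at 0 and 1.05 CPM. The log2 difference from isotype stage II was -8.32 ± 0.766 (edgeR adjusted p = 5.21e-07). Socs2, a feedback inhibitor of cytokine receptors, had 0.237, 0.0952 and 0.877 CPM in anti-IL5 stage I, against 13.1 and 14 CPM in isotype stage II and 14.5, 17.2 and 13 CPM in isotype stage I. The isotype stages did not differ for Socs2 beyond their spread (step -0.13, edgeR adjusted p = 0.901), and the anti-IL5 difference from stage II was -5.01 ± 0.644 (edgeR adjusted p = 5.37e-05). Pim1, a survival kinase, had 25.6, 10.9 and 11.1 CPM in anti-IL5 stage I, against 71.2 and 97.7 CPM in isotype stage II and 81.5, 71.1 and 52.4 CPM in isotype stage I (difference from stage II -2.42 ± 0.324, edgeR adjusted p = 0.000211; from stage I -2.12 ± 0.292, adjusted p = 0.000239). No library of anti-IL5 stage I overlapped either isotype group in these 3 genes. Lipg and Socs2 differed from isotype stage I by -7.12 ± 0.74 and -5.15 ± 0.607 (edgeR adjusted p = 1.37e-06 and 1.74e-05). Socs1 was likewise lower than isotype stage II (-1.88 ± 0.327, edgeR adjusted p = 0.00197) and isotype stage I (-1.88 ± 0.293, adjusted p = 0.000791).

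Cish, whose promoter window is printed above, followed another course. It had 9.12, 4.09 and 1.85 CPM in anti-IL5 stage I, against 27.2 and 35.8 CPM in isotype stage II and 10.6, 11.2 and 13.3 CPM in isotype stage I. Isotype cells gained Cish over the step (1.43, edgeR adjusted p = 0.0227), and anti-IL5 precursors stood at or under their stage I level. That step was not called, or lay under the fold minimum, in 6 of 15 alternative fits, those of only stages I and II or only the 3 groups and those without isotype stage II replicate 1 or 2 or isotype stage I replicate 1 or 2. The difference from isotype stage II was -2.68 ± 0.422 (edgeR adjusted p = 0.000929), and that from isotype stage I, -1.25 ± 0.39, did not pass (adjusted p = 0.0736). Bcl2l1, which encodes the survival protein Bcl-xL, had 14.5, 15.7 and 9.35 CPM in anti-IL5 stage I, against 32.9 and 26.7 CPM in isotype stage II and 17.1, 9.16 and 14.9 CPM in isotype stage I. It differed from isotype stage II by -1.18 ± 0.276 (edgeR adjusted p = 0.022, 0.218 at most without anti-IL5 replicate 3 or isotype stage II replicate 1, and 0.0931 at most with fewer groups). Pim2, named after its value was seen, differed from isotype stage II by -1.76 ± 0.349 (adjusted p = 0.00691, and 0.174 at most without anti-IL5 replicate 3 or isotype stage II replicate 1).

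Of the 21 tested IL-5 and STAT5 targets, 6 were lower (Socs2, Cish, Pim1, Socs1, Pim2 and Bcl2l1) and 1, Ccnd2, was higher, 33.3% called beside 2.33% of all genes. Their median was -0.56. Leaving out isotype stage II replicate 1 gave 4 lower and 0 higher members with a median of 0.00, and leaving out anti-IL5 replicate 3 gave 4 lower and 0 higher. Ccnd2 had 36.6, 37.9 and 61.7 CPM in anti-IL5 stage I, against 10.5 and 11.4 CPM in isotype stage II and 98.9, 86.4 and 104 CPM in isotype stage I. It was thus higher than isotype stage II only, and lay below every isotype stage I library by a difference that did not pass (-1.09 ± 0.429, edgeR adjusted p = 0.172). The other members of the list did not pass, among them Mcl1 (0.10, edgeR adjusted p = 0.905), Bcl2 (0.14, adjusted p = 0.911) and Pim3 (-0.12, adjusted p = 0.93). Myc lay between the isotype stages, with 214, 185 and 258 CPM in anti-IL5 stage I, against 132 and 137 CPM in isotype stage II and 363, 317 and 298.9 CPM in isotype stage I, and was not placed (0.70 ± 0.361, edgeR adjusted p = 0.375). Bcl6 had 2.61, 6.19 and 5.75 CPM in anti-IL5 stage I, against 0.684 and 1.47 CPM in isotype stage II and 0.813, 0.104 and 1.6 CPM in isotype stage I. Its difference of 2.14 ± 0.591 missed the threshold (edgeR adjusted p = 0.0582), and anti-IL5 stage II had 6.88 and 7.43 CPM.

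The 12 largest falls also included the receptors Adora2b, F2rl2, F2r and Grm6, which are set side by side here after their values were seen. Adora2b, an adenosine receptor, had 2.13, 0.857 and 2.43 CPM in anti-IL5 stage I, against 56.5 and 28.4 CPM in isotype stage II and 7.03, 4.16 and 4.34 CPM in isotype stage I (-4.55 ± 0.638, edgeR adjusted p = 0.000375). F2rl2, which encodes the protease-activated receptor PAR3, had 1.66, 1.24 and 1.56 CPM in anti-IL5 stage I, against 27.9 and 13 CPM in isotype stage II and 6.51, 4.27 and 7.45 CPM in isotype stage I (-3.78 ± 0.432, edgeR adjusted p = 2.25e-05). The thrombin receptor F2r differed by -4.24 ± 0.739 (adjusted p = 0.00151) and the glutamate receptor Grm6 by -3.67 ± 0.564 (adjusted p = 0.000929). F2r and F2rl2 lie close together on chromosome 13 (95601780-95618466 and 95696920-95702768, mm10), as does Crhbp (95431376-95444831). Crhbp, which binds and holds corticotropin-releasing hormone, had 3.91, 2.38 and 7.5 CPM in anti-IL5 stage I, against 48.1 and 56.8 CPM in isotype stage II and 79.1, 113 and 127 CPM in isotype stage I (difference from stage II -3.51 ± 0.516, edgeR adjusted p = 0.000588; from stage I -4.53 ± 0.466, adjusted p = 2.05e-05). It falls with isotype maturation, so anti-IL5 precursors lay beyond isotype stage II. Kdelr3, which returns proteins to the endoplasmic reticulum, had 0.711, 1.05 and 0.487 CPM in anti-IL5 stage I, against 9.72 and 13.8 CPM in isotype stage II (-3.95 ± 0.723, edgeR adjusted p = 0.00326). Bcl2a1a, an antiapoptotic Bcl2 relative whose near-identical copies may split reads, differed by -3.25 ± 0.414 (adjusted p = 7.66e-05). The calls of Lipg, Socs2, Pim1, Socs1, Cish, Adora2b, F2r, F2rl2, Grm6, Crhbp, Kdelr3, Bcl2a1a, Serpinb2, S100a6, Retnlg and Lmna held without each library in turn and in every other fit run.

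Some progenitor genes were higher in anti-IL5 stage I than in isotype stage II. Of 18 tested stem and progenitor genes, 4 were higher in anti-IL5 stage I than in isotype stage II and 0 lower (22.2% called, beside 2.33% of all genes), with a median of 1.14, beside -0.96 over the isotype step. Cd34, a surface sialomucin of progenitors, had 95.8, 119 and 158 CPM in anti-IL5 stage I, against 24.4 and 34.2 CPM in isotype stage II and 91.6, 99.7 and 112 CPM in isotype stage I. Anti-IL5 and isotype stage I overlapped, and the difference from isotype stage II was 2.08 ± 0.322 (edgeR adjusted p = 0.00151). Myb, a factor that keeps progenitors cycling, had 721, 717 and 801 CPM in anti-IL5 stage I, against 194 and 343 CPM in isotype stage II and 622, 434 and 555 CPM in isotype stage I (1.47 ± 0.308, edgeR adjusted p = 0.0153). Adgrl4, an adhesion receptor, differed by 2.43 ± 0.431 (adjusted p = 0.00529). Meis1, a stem cell homeobox factor, had 1.9, 5.52 and 10 CPM in anti-IL5 stage I, against 0.684 and 0 CPM in isotype stage II (4.17 ± 1.2, edgeR adjusted p = 0.022), close to the floor. Kit, whose protein CD117 was part of the sort, differed by 1.16 ± 0.498 (adjusted p = 0.279). Against isotype stage I none of the 4 passed (edgeR adjusted p = 0.643 for Cd34, 0.767 for Adgrl4, 0.383 for Myb and 0.614 for Meis1). Anti-IL5 stage II had 33.2 and 40.1 CPM of Cd34. Without isotype stage II replicate 1 none of the 4 passed, with an adjusted p of 0.0608 for Cd34 and at most 0.12 for Adgrl4, 0.27 for Myb and 0.111 for Meis1. Myb and Meis1 were also lost without anti-IL5 replicate 3, and Meis1 without isotype stage II replicate 2, with limma-voom, with no filter or with fewer groups (highest 0.125).

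The 12 largest rises relative to isotype stage II, among genes that averaged 10 CPM or more in the higher group and whose libraries did not overlap (29.7% of all tested genes did not), were led by Cd72, Cyp27a1, Il12a and Diras2. Cd72, an inhibitory C-type lectin best known in B cells, had 31.4, 42.4 and 74.1 CPM in anti-IL5 stage I, against 3.15 and 1.47 CPM in isotype stage II and 21.9, 13.5 and 19.9 CPM in isotype stage I (4.43 ± 0.593, edgeR adjusted p = 0.000598). Fgf3, a growth factor, had 106, 102 and 118 CPM in anti-IL5 stage I, against 7.26 and 18 CPM in isotype stage II and 65.6, 67.2 and 79.7 CPM in isotype stage I (3.10 ± 0.383, edgeR adjusted p = 0.000277). Both lay above every isotype stage I library, by amounts that did not pass (1.42 ± 0.461, adjusted p = 0.0907, and 0.62 ± 0.327, adjusted p = 0.328). Abca8b, a lipid transporter, had 12.6, 23.2 and 36.7 CPM in anti-IL5 stage I, against 2.74 and 1.47 CPM in isotype stage II and 27.4, 19 and 21.7 CPM in isotype stage I (3.53 ± 0.605, edgeR adjusted p = 0.00426). Cd72, Fgf3 and Abca8b kept their calls in every alternative fit. The others did not: without isotype stage II replicate 1 the calls of the sterol hydroxylase Cyp27a1, the interleukin chain Il12a, the small GTPases Diras2 and Rab38, the interferon-inducible Mndal, the RNA-binding protein Igf2bp2, Mdga1, Ctsg and Prss34 ended, with highest adjusted p of 0.189, 0.193, 0.116, 0.146, 0.105, 0.0862, 0.181, 0.294 and 0.14 over the fits that left out a library. Of these, all but Diras2 and Igf2bp2 were also lost without anti-IL5 replicate 3. Il12a, Rab38, Mdga1, Ctsg and Prss34 were lost without isotype stage II replicate 2 as well, Il12a, Mdga1 and Ctsg without anti-IL5 replicate 2, and Ctsg without any isotype stage I library. With no filter on low counts Ctsg and Prss34 missed the threshold, as did Ctsg with RLE size factors or only the 3 groups and Prss34 with DESeq2 (highest 0.0939 and 0.0778). Cyclin D2 (Ccnd2, 2.05 ± 0.506, adjusted p = 0.0458) and the phosphatase Dusp2 (2.75 ± 0.57, adjusted p = 0.02) were higher and lost their calls without anti-IL5 replicate 2 or 3 or without either isotype stage II library (highest 0.31 and 0.191). Ccnd2 was also lost without each isotype stage I library and with RLE size factors, and both were lost with no filter on low counts (highest 0.118 and 0.0695).

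Proteases of other granulocytes were part of this group. Ctsg, cathepsin G of primary neutrophil granules, had 43.5, 99.9 and 271 CPM in anti-IL5 stage I, against 14.6 and 13.1 CPM in isotype stage II and 202, 240 and 346 CPM in isotype stage I (3.31 ± 0.751, edgeR adjusted p = 0.0479). Anti-IL5 replicate 3 was within the isotype stage I range and the other two lay under it. Of 9 primary granule protease genes, 1 was higher, where 0.718% of all genes were, and 0 lower. Their median was 1.89, beside -2.31 over the isotype step, and 5 were higher and 0 lower at unadjusted p under 0.05. With limma-voom or only stages I and II, 3 were called higher. With RLE size factors, no filter or a replicate block, 0 were. Their summed CPM were 3240 to 8760 in anti-IL5 stage I, against 2030 and 2580 CPM in isotype stage II and 6470 to 8780 CPM in isotype stage I, with 0 members at 0 throughout. Prss34, a basophil and mast cell protease, had 126, 136 and 404 CPM in anti-IL5 stage I, against 34.6 and 18 CPM in isotype stage II (3.08 ± 0.607, edgeR adjusted p = 0.0248). Of 9 tested basophil and mast cell genes, Prss34 was higher and Il4 lower (-0.82 ± 0.171, adjusted p = 0.00976, at most 0.306 without anti-IL5 replicate 3 or isotype stage II replicate 1, and at most 0.0929 with fewer groups). The list summed to 2170 to 3240 CPM in anti-IL5 stage I, against 1620 and 2310 CPM in isotype stage II, with Tpsb2 at 0 in all 5 libraries. The sums of both lists were measured beside the progenitor genes above, and their part in those results was not tested.

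Of the sort markers, Cd55 and Pirb were lower among 9 tested, where 1.61% of all genes were. The list had a median of -0.89, beside 0.25 over the isotype step, and 2 members lay within the 2-fold margin. At unadjusted p under 0.05, 5 were lower and 1 higher. Cd55 had 49.5, 59.7 and 54.6 CPM in anti-IL5 stage I, against 102 and 101 CPM in isotype stage II and 109, 117 and 115 CPM in isotype stage I. It thus stood below both isotype stages, by -0.89 ± 0.234 from stage II (edgeR adjusted p = 0.0428) and -1.06 ± 0.209 from stage I (adjusted p = 0.00512). The call against stage II ended when any library of anti-IL5 stage I or of isotype stage I or II was left out (highest 0.191), and with RLE size factors or limma-voom (highest 0.0544). The mean and SD were 54.6 ± 5.08 CPM in anti-IL5 stage I (n = 3) and 101 ± 0.552 CPM in isotype stage II (n = 2). Pira1 and Pira7 were at 0 in all 5 libraries, and reads of the Pira family may be split between copies.

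Anti-IL5 stage II was set against isotype stage II with the same test, where 1.75% of all genes differed. That comparison shares its isotype stage II libraries with the one above, so the values are given side by side. Lipg differed by -8.26 ± 0.928 (edgeR adjusted p = 1.56e-05), Socs2 by -6.75 ± 1.21 (adjusted p = 0.000183) and Crhbp by -5.89 ± 0.767 (adjusted p = 0.000183), each low at both anti-IL5 stages. Serpinb2, S100a6 and Lmna, low in anti-IL5 stage I, differed by 0.78 ± 0.392, 0.45 ± 0.324 and -0.45 ± 0.294 in anti-IL5 stage II, with adjusted p of 0.4, 0.599 and 0.555. Retnlg was higher in anti-IL5 stage II, at 789 and 555 CPM (2.02 ± 0.35, adjusted p = 0.00796). So were Id2 (1.56 ± 0.202, adjusted p = 0.000364), Tgfbi (1.73 ± 0.302, adjusted p = 0.00796) and Bank1 (1.36 ± 0.225, adjusted p = 0.00459), which were at the isotype stage II level in anti-IL5 stage I. Cd34, Fgf3 and Cd72 had differences of 0.32 ± 0.356, 0.30 ± 0.428 and 1.60 ± 0.655, none past the threshold (adjusted p = 0.774, 0.837 and 0.267).

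Several further lists held few or no called genes. Of 24 cholesterol synthesis genes 0 were called (5 lower at unadjusted p under 0.05; median -0.39), of 23 interferon response genes 0 (4 higher unadjusted; median 0.38), of 13 serine and one-carbon enzymes 0 (2 lower unadjusted; median -0.15) and of 9 proapoptotic Bcl2 family genes 0 (3 lower unadjusted; median -0.49), each by edgeR. Of 12 antiapoptotic and survival genes, Bcl2a1a and Bcl2l1 were lower, where 1.61% of all genes were, and the list median was 0.00. The median log2 difference over all genes was -0.02.

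**Figure D4:**
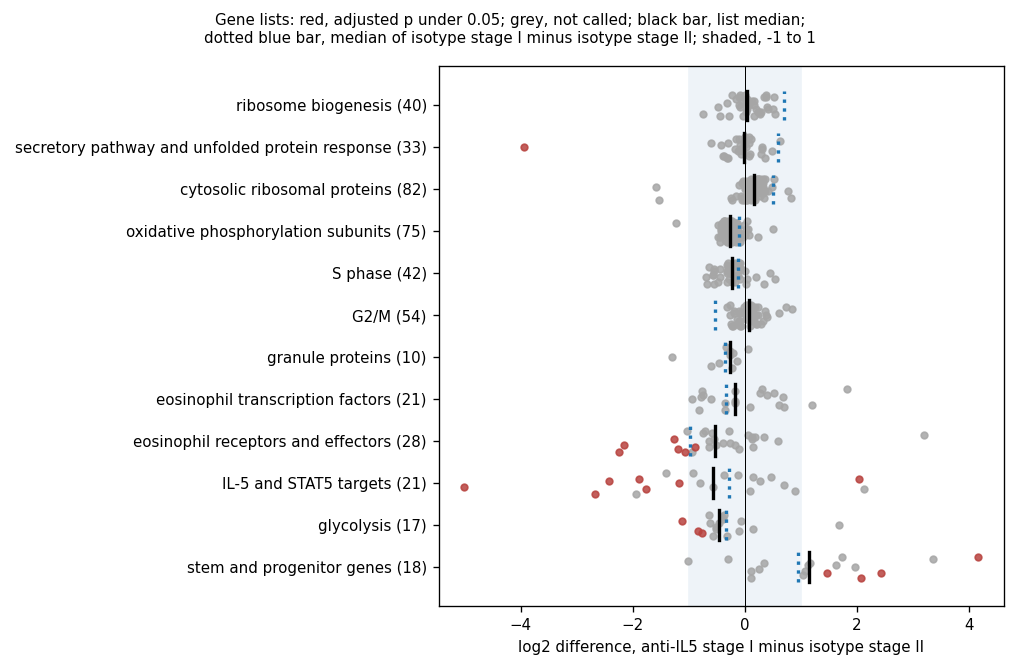
Log2 differences, anti-IL5 stage I minus isotype stage II, of the tested members of 12 gene lists (one point per gene, number tested in brackets; red points passed an edgeR adjusted p under 0.05), with the list median as a black bar and the median of isotype stage I minus isotype stage II as a dotted blue bar. Ribosome biogenesis (median 0.04) and the secretory pathway (-0.02) have medians near 0, while stem and progenitor genes (1.14) and receptors and effectors (-0.53) lie toward isotype stage I.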

How the data were processed

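RNA-seq libraries came from full-length cDNA (SMART-Seq v4, amplified over 17 cycles; Nextera XT), without strand marking or named molecular identifiers, so floors cover counting error only. The deposited files hold raw read counts for 24982 gene symbols. STAR 2.6.1a and build mm10 were used, per the submitters' processing notes, which also name DESeq2 without its role. How reads were counted, and on which annotation, is not given in the sources used here. Reads of overlapping or antisense genes therefore cannot be separated. Lines for reads without a feature (17.1% to 22.1% of all counts in the 5 libraries) or with several (2.05% to 2.39%) were left out. The files have 0 mitochondrial gene lines.

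Of 16619 genes with a count, filterByExpr kept 12387. All 22 libraries, in 8 groups of stage and antibody, were fitted in edgeR 4.0.16 (R 4.3.3; TMM, robust quasi-likelihood), so the small groups borrow spread from the others, and p-values were adjusted over all tested genes by Benjamini-Hochberg. Fold changes are log2, anti-IL5 stage I minus isotype stage II, with SE and 95% interval from the moderated quasi-dispersion. An exact permutation test of 3 against 2 libraries cannot go below 0.1 and was not used. Mean log2 CPM used a prior count of 2. The method was tested on simulated data. Libraries of stages I and II were compared within groups and none was a copy of another. Alternatives were RLE size factors, DESeq2 1.42.0, limma-voom (limma 3.58.1), no low-count filter, fewer groups, other margins and step minimums, a replicate block and leaving out each library.

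Named genes were the 12 largest rises and falls among called genes that averaged 10 CPM or more in 1 of the groups and whose libraries did not overlap, the 8 stage II genes of largest isotype step per class and direction, up to 4 called members per list, and a set fixed by name. The comparison, lists and rules were chosen with earlier results of these data known, so they are no independent support. Sequences and mm10 positions are from RefSeq (GRCm38.p6).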

Additional observations from a re-analysis of the deposited data

How the results depend on the processing

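The number of called genes depends on single libraries and on how spread is shared, while no named gene with a call changed direction. DESeq2 called 529 genes, 231 of them higher, and gave 241 stage II and 320 stage III genes as not reached, against 288, 89, 156 and 203. Here and below, stage III genes are placed by the isotype stage II level and not by that of stage III. Fitting only stages I and II gave 87 lower genes and only the 3 groups gave 134 higher and 92 lower, against 89 and 199. The share of calls that were higher was 30.9%, and 37.3% with RLE size factors, 43.7% with DESeq2, 47% with limma-voom, 55.6% with only stages I and II and 59.3% with only the 3 groups. Some lists with 0 called genes held 1 or 2 in other fits. DESeq2 gave 1 lower gene each for S phase, granule proteins, cholesterol synthesis and serine and one-carbon enzymes. It also gave 1 lineage transcription factor in each direction and 2 higher interferon genes. With limma-voom 1 S phase gene and 2 serine and one-carbon enzymes were lower and 1 transcription factor was higher. A 1.5-fold margin left 13 stage II and 504 stage III genes as reached and no minimum step gave 689 and 3977, against 131 and 1947. Leaving out single libraries gave 74 to 747 called genes (20 to 239 higher, 54 to 508 lower), 386 to 1677 for the isotype step (386 without isotype stage II replicate 1, 775 and 845 without isotype stage I replicates 2 and 3), 33 to 420 stage II genes not reached and 62 to 159 reached, and 52 to 376 stage III genes not reached and 1215 to 2080 reached. Where a library is left out of isotype stage II, the lone library is assumed to vary like the other groups. Same-numbered replicates deviated together only weakly (correlations of 0.03 to 0.16), so the numbers were not taken to pair the libraries. A replicate block gave 90 higher and 205 lower genes and, among named genes, ended the calls of Ctsg (edgeR adjusted p = 0.0537) and Cd55 (0.0604). The cause of these changes was not tested. Some of the settings have fewer libraries or a narrower margin by construction. With 2 libraries in isotype stage II, 229 rising and 123 falling stage II genes could not be placed.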
